A study of Mus musculus with 21 samples.

Results

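The glucocorticoid receptor (GR) sites nearest to gene starts were examined in ChIP-seq (sequencing of the DNA that an antibody to the receptor pulls down) of C57BL/6J mouse livers. Overlapping peaks of all 18 GR libraries were merged into sites. A site was kept if at least 3 libraries held a peak there and its centre lay within 1 kb of the 5′ end of a protein-coding gene, taken as the end of its annotated span. This gave 182 promoter-proximal sites near 183 genes, among 2563 sites found in 3 or more libraries and 7398 merged sites in all.

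Livers were taken 2 h after an intraperitoneal injection of the synthetic glucocorticoid dexamethasone (DEX, 10 mg/kg) or of saline buffer (PBS). DEX and PBS were each given in normoxia, after 6 h at 7% oxygen and after 24 h at 7% oxygen. Each of the 6 groups had 3 libraries, which the series' design calls biological replicates. The labels name no genetic change, and all samples were pieces of whole liver, so the cell type behind a site was not measured.

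GR is a nuclear receptor that waits in the cytoplasm, enters the nucleus when it holds a glucocorticoid, and binds DNA directly at glucocorticoid response elements or through other factors already on the chromatin. In liver it is best known for raising genes of glucose production and amino acid breakdown, for cooperating with inflammatory signals on acute phase genes, and for raising its own negative regulators of inflammation. Most receptor sites in tissues lie far from gene starts, at enhancers, and the promoter-proximal sites are the minority.

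The parts of 6 receptor sites that fell in the 250 bases before the RefSeq start of a gene are shown first, because they hold the letters of a response element, or of 1 arm of it, inside a peak. The site at Ip6k2 was taken because it was found with DEX and in no PBS library and overlapped its promoter window. The other 5 were chosen after their values were seen, for their motif. Sequences are from RefSeq, build GRCm38.p6, and run 5′ to 3′ on the gene's strand. Site bases outside those 250 are not printed, so that 112 of the 229 bases at Ip6k2, 173 of 214 at Txnip, 210 of 219 at Slc10a6, 224 of 281 at Mt1, 190 of 271 at Serpina3n and all 225 at Orm2 appear. Capitals mark the single arm AGAACA and the relaxed element, which is GNACA, then 3 bases of any kind, then TGTNC, with N any base. The arm and the element overlap at Slc10a6. Slc10a6 (chr5:103629444-103629653, minus strand) makes a transporter of sulphated steroids, Mt1 (chr8:94178865-94179088, plus strand) a metallothionein that binds zinc, Txnip (chr3:96557707-96557879, plus strand) an inhibitor of thioredoxin and of glucose uptake. Serpina3n (chr12:104406518-104406707, plus strand) makes an acute phase protease inhibitor, Ip6k2 (chr9:108783562-108783673, plus strand) an inositol hexakisphosphate kinase, and Orm2 (chr4:63362221-63362445, plus strand) the acute phase protein orosomucoid.
Slc10a6: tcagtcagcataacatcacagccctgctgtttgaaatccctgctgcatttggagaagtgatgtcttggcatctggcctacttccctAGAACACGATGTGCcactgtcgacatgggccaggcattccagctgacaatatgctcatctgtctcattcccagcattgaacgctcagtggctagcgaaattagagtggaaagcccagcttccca
Mt1: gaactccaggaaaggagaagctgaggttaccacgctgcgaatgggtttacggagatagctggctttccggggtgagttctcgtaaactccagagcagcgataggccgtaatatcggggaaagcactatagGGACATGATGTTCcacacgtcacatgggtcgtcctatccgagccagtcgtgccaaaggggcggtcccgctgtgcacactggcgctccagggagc
Txnip: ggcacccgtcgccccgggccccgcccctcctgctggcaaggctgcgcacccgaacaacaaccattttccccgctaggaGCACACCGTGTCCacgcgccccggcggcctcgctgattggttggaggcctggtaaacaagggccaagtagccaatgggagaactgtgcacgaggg
Serpina3n: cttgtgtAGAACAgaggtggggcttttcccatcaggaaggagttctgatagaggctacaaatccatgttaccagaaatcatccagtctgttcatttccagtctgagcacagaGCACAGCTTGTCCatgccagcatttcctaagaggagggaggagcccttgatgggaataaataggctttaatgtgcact
Ip6k2: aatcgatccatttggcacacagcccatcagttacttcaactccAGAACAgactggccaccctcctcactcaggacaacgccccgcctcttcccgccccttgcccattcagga
Orm2: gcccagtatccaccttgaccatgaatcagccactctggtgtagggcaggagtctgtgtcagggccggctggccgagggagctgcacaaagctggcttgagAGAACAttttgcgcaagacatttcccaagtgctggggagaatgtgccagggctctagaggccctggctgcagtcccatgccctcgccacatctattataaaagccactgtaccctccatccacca

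The relaxed element stood in the promoter windows of Slc10a6, Mt1, Txnip and Serpina3n above, with first bases at -163, -94, -172 and -78 from the RefSeq start. It also stood in those of Serpinf2 and Gnmt, at 2 and 19 bases past the start. These were 6 of the 85 promoter windows that a site overlapped (7.06%), each window holding 250 bases before the start and 50 after, searched on both strands. Among all 17492 protein-coding promoters with a window, 76 held it (0.434%). The strict element, AGAACA and TGTTCT with 3 bases between, stood in 0 of the 85 and in 1 of all promoters. The single arm AGAACA stood in 16.5% of the overlapped windows and 16.4% of all promoters.

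Other liver and promoter motifs gave shares in the overlapped windows beside those in all promoters. The C/EBP motif TTGCNNAA stood in 15.3% of overlapped windows and 10.1% of all, the STAT motif TTCNNNGAA in 12.9% and 7.78%, the FOXA motif TGTTTAC in 5.88% and 2.93%, and the CCAAT box in 52.9% and 39.2%. The TATA box TATAAA stood in 11.8% and 13.3%. The core ACGTG, which the hypoxia-inducible factors bind, stood in 15.3% and 20.7%. These shares are descriptions of small sets, and a match is not a measured binding event. The overlapped windows had a median CpG observed-to-expected ratio of 0.436, against 0.577 over all promoters, and 41.2% of them passed 0.6, the ratio often used to mark CpG islands, against 48.4% of all. Over the windows of all 176 genes with a site, overlapped or not, the order was the other way, with a median of 0.621 and 51.1% past 0.6. In those 176 windows the relaxed element stood in 3.41%, the C/EBP motif in 12.5%, the STAT motif in 7.95%, the FOXA motif in 4.55% and the CCAAT box in 46.0%. Of the overlapped windows, 35 had a site with a peak in normoxia PBS replicate 1. Their median CpG ratio was 0.630 and 54.3% passed 0.6, against 0.372 and 32% for the other 50.

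The 182 sites lay on both sides of gene starts, with centres upstream at 99 and downstream at 83. The median distance was -37.5 bp (negative upstream, quartiles -271 and 292), and 123 sites (67.6%) lay within 500 bp. The distance was measured to the end of the gene's annotated span. The RefSeq start nearest to that end, used for the windows, was the same base at 105 sites and over 1 kb away at 22, by up to 136095 bp at Klf12. From that start, 159 of the 182 centres lay within 1 kb and 23 further upstream, among them Acacb (-19330 bp), Saa3 (-4029.5 bp), Tat (-3881.5 bp), C1qtnf6 (-3191.5 bp), Pla2g12a (-1827 bp), Midn (-1419 bp), Tnfrsf14 (-1391.5 bp), Brwd1 (-1092 bp) and Slc26a8 (-1021 bp). At the rule's limit, the sites just inside were at Aox1 (965 bp), Chd1l (966 bp) and Stat2 (987.5 bp), with 64.2, 89.6 and 67.9 mean normalized tags in DEX libraries. Just outside were Sys1 (1003 bp), Arhgef3 (1006.5 bp) and Lrp1 (1018 bp), with 108, 111 and 55.2. At 6 genes (Aox1, Hjurp, Slc25a47, Ell2, Lcat and Orm3) there were 2 sites, and 7 sites lay within 1 kb of the 5′ ends of 2 genes.

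**Figure D1:**
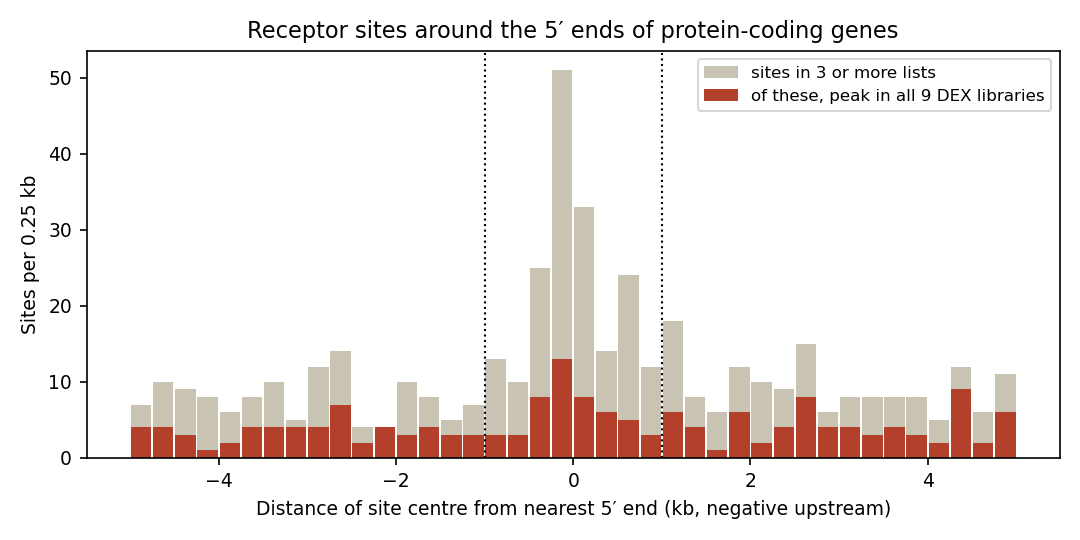
Number of sites in 3 or more libraries per 0.25 kb (y axis) by distance of the site's centre from the nearest 5′ end in kb, negative upstream (x axis). Grey bars count all such sites and red bars those with a peak in all 9 DEX libraries. The dotted lines mark the limit of 1 kb. The tallest grey bar, of 51 sites, lies just upstream of the start.

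Of all merged sites within 1 kb of a 5′ end, 2255 in number, 2045 were seen in 1 library only, and 1981 of those in normoxia PBS replicate 1 alone. That library stood apart. It held 43645787 tags, against 5772670 to 16500568 in the other 17, and its peaks were 280 bp wide, against 178 to 196 bp. Per the file headers, up to 2 tags per position were counted in it, against 1 in the other 17, which was not corrected here. A peak needed 50 tags whatever the depth, so the lowest value that could be called was 11.5 normalized tags (tags per 10000000 tags of the library) in normoxia PBS replicate 1 and 86.6 in 6 h DEX replicate 2, the shallowest library. Promoters near the sites seen in normoxia PBS replicate 1 alone had a median CpG ratio of 0.841, and the relaxed element stood in 0.206% of them. The requirement of 3 libraries removed these sites, and 61 of the 182 had a peak in that library.

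The promoter-proximal sites were detected mostly with DEX, as were sites in general. In normoxia, DEX libraries held a peak at 163, 132 and 160 of the 182 sites, against 61, 7 and 21 in PBS libraries. After 6 h of hypoxia the DEX libraries held 139, 76 and 94, against 13, 50 and 43 with PBS. After 24 h the DEX libraries held 62, 73 and 133, against 10, 6 and 2 with PBS. In each oxygen condition every DEX library was above every PBS library. The DEX libraries held 5772670 to 13181686 tags each and the PBS libraries 8667179 to 43645787. The part of depth in these counts was not tested.

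**Figure D2:**
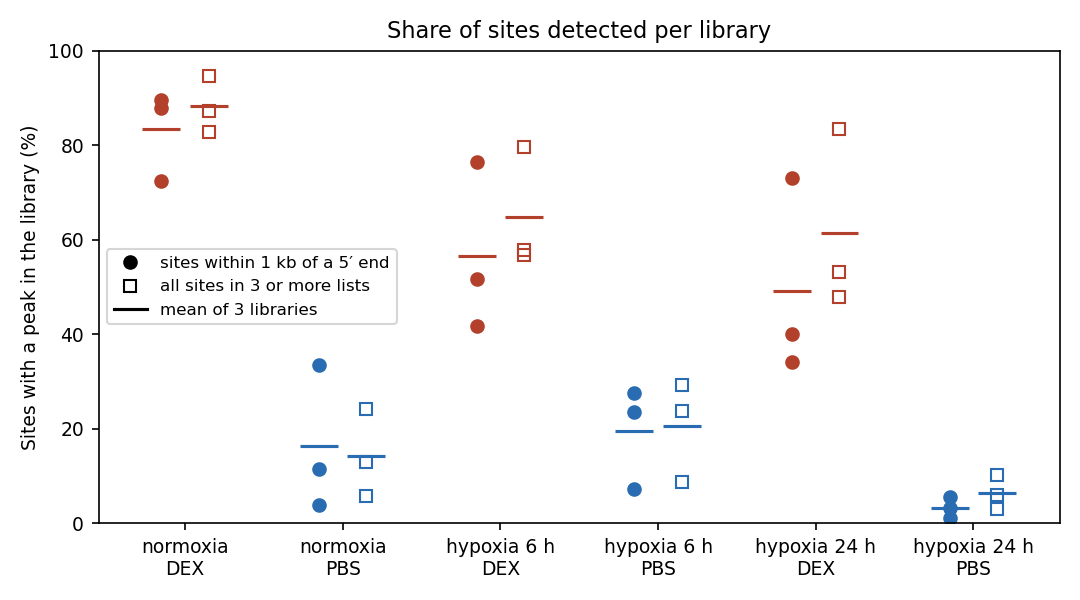
Share of sites with a peak in each library in percent (y axis) for the 182 sites within 1 kb of a 5′ end (filled circles) and for all 2563 sites in 3 or more libraries (open squares), by group (x axis, red DEX, blue PBS). Lines are means of 3 libraries. With DEX the means of the promoter-proximal sites were 83.3%, 56.6% and 49.1% in normoxia, 6 h and 24 h, and with PBS 16.3%, 19.4% and 3.30%. Over all 2563 sites the means were 88.2%, 64.7% and 61.5% with DEX, and 14.3%, 20.5% and 6.39% with PBS.

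Detection per site with DEX was set against PBS in the exact conditional form of the Cochran-Mantel-Haenszel test, with oxygen as the stratum and Benjamini-Hochberg adjustment over all 2563 sites. At 85 of the 182 promoter-proximal sites (46.7%) a peak was found more often with DEX, against 55.3% of all sites tested, and at 0 less often, against 0.039%. At an unadjusted p under 0.05 the counts were 95 (52.2%, against 59.0% of all) and 0. The smallest adjusted p this design reached was 0.00307. With the replicate number as a further block, the count was 44 (24.2%, against 35.9% of all sites). Calls of single sites below are from the test without this block, and named sites that lost the call with it are listed at the end. Without normoxia PBS replicate 1 the count was 91 of 168 (54.2%, against 59.2% of all sites), and without 6 h PBS replicate 2 it was 86 of 181 (47.5%, against 56.5%). When a peak had to reach 86.6 tags in every library, 66 of the sites could be tested and 44 were found more often with DEX (66.7%, against 62.5% of all sites), so the order of the shares turned round. In direction, 171 of the 182 had more DEX than PBS detections, a count that was not made over all sites. Fewer DEX than PBS detections were found at 8 (4.40%, against 1.79% of all sites). Of the 182, 92 had no PBS peak (50.5%, against 57.2% of all sites). The rule of 3 libraries fixed the direction of those 92 in advance.

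The sites held a peak in all 9 DEX libraries less commonly than sites in general, as a description. Of the 182, 49 (26.9%) had one, against 36.5% of all sites tested. Of the 182, 4 (2.20%) had a peak in all 9 DEX libraries and in no PBS library, against 8.15% of all. Mean normalized tags over the DEX libraries that detected a site had a median of 68.1 near gene starts and 79.9 over all sites. The median ratio over input, the authors' own value per peak, was 42.2 near gene starts and 61.0 over all sites, while the median input tags were 1.60 and 1.44. Exactly 3 libraries held 44 of the 182 sites (24.2%), against 15.2% of all.

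**Figure D3:**
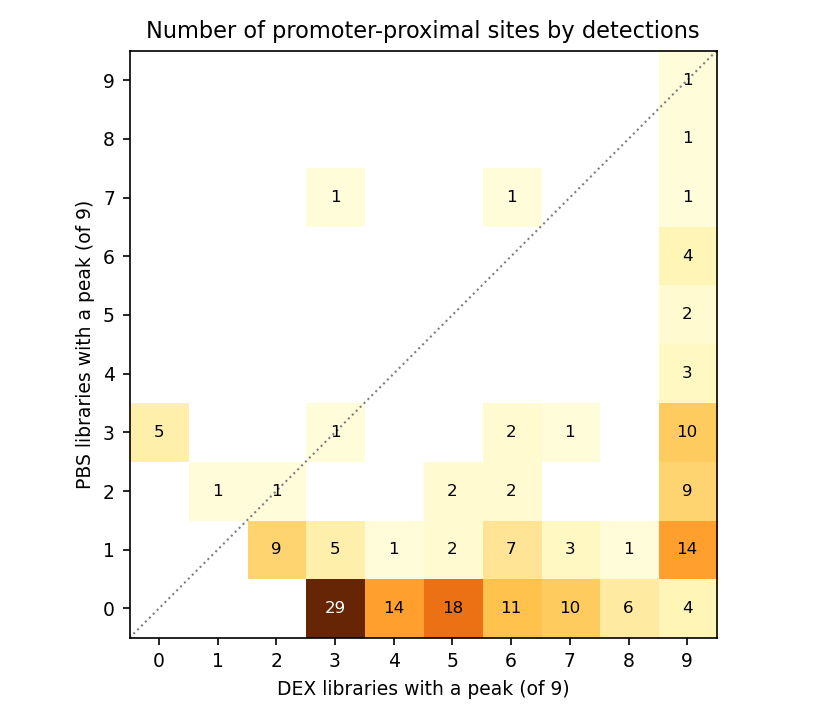
Number of promoter-proximal sites (printed in each square) by how many DEX libraries (x axis) and PBS libraries (y axis) held a peak. The dotted diagonal marks equal numbers. The fullest square holds 29 sites with 3 DEX and 0 PBS libraries, and 8 sites lie above the diagonal.

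The site with the most tags was in Midn, which encodes midnolin, a nuclear protein that carries short-lived proteins to the proteasome. The site lay 848 bp inside the gene's annotated span and at -1419 bp from the RefSeq start (chr10:80146742-80146964 in mm10, as all positions here). Exons and introns were not used here. With DEX it held 972, 1167 and 1469 normalized tags in normoxia, 1218, 1429 and 999 after 6 h, and 755.5, 1245 and 1334 after 24 h. With PBS a peak was called in 6 libraries, with 66.9 and 42.4 in normoxia, 727 and 200.4 after 6 h, and 126 and 81.9 after 24 h. Every DEX library was above every PBS value, and the highest PBS value, in 6 h PBS replicate 2, was close to the lowest DEX value. Its detection did not pass (adjusted p = 0.281, exact test), with a PBS peak in 6 of 9 libraries, but passed when a peak had to reach 86.6 tags in every library (adjusted p = 0.0181).

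Nfkbia, which encodes the inhibitor that holds NF-kappa-B in the cytoplasm, was the 1 promoter-proximal site of 182 with a peak in all 18 libraries. Of all sites tested, 62 (2.42%) had one in all 18. The site lay 642 bp inside the gene (chr12:55491860-55492150). With DEX it held 497, 467 and 548 normalized tags in normoxia, 478, 462.5 and 404 after 6 h, and 302, 403 and 492 after 24 h. With PBS it held 45.4, 91.1 and 83.0 in normoxia, 53.0, 297 and 181 after 6 h, and 145, 51.2 and 59.2 after 24 h. The groups did not overlap. On log2 normalized tags, DEX was higher by 2.29 ± 0.31 (SE; limma, adjusted p = 2.06e-10), 4.88-fold, with 95.2% of the 62 sites tested also called higher. This difference did not pass as unequal between normoxia and 6 h (adjusted p = 0.481, limma) or 24 h (adjusted p = 0.925, limma), with terms of -1.19 ± 0.78 for 6 h and -0.48 ± 0.78 for 24 h (SE). When sites in at least 2 of 3 libraries of each group were taken, 4 promoter-proximal sites could be tested and 2 were higher, against 97.0% of 133. These were Nfkbia and Midn, Midn by 3.18 ± 0.35 (SE, adjusted p = 7.84e-16, limma). In this fit a library without a peak had no value, so Midn rested on 9 DEX and 6 PBS libraries. C1qtnf6 differed by 0.60 ± 0.31 (adjusted p = 0.0568, limma) and Hjurp by -0.05 ± 0.36 (adjusted p = 0.884, limma).

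The sites at promoters with the relaxed element, taken for that motif after their values were seen, differed in how often they were found (Mt1 is given with the glucocorticoid-induced genes). Slc10a6 had 140.3, 88.8 and 94.4 normalized tags in normoxia, 121.5, 154 and 110.4 after 6 h and 73.5, 113 and 130.5 after 24 h with DEX, against 39.6, 124 and 57.7 in the 3 PBS libraries of 6 h. It passed the detection test (adjusted p = 0.0138, exact test), and its ranges overlapped. Serpinf2, which makes the inhibitor of plasmin, had 90.6, 143 and 192 as lowest, median and highest DEX values, against 21.8, 117 and 68.2 in 3 PBS libraries, with overlap, and passed (adjusted p = 0.0216, exact test). Gnmt, which uses up S-adenosylmethionine in liver, had a peak in 5 DEX libraries (58.5 to 91.6) and no PBS library, and passed (adjusted p = 0.0452, exact test). Among the named sites, Fzd4, Got1, the inner site of Aox1 and the upstream site of Lcat had that same adjusted p. When sites in 2 or more libraries were tested, 72 of 210 promoter-proximal sites passed (34.3%, against 41.9% of all sites). There all 5, Gnmt included, lost the call (adjusted p = 0.0534, exact test). Gnmt, Aox1 and Lcat also lost it without 6 h DEX replicate 1 (adjusted p = 0.0739) or 24 h DEX replicate 3 (0.0785), and Fzd4 without normoxia PBS replicate 2 (0.0766) or 6 h PBS replicate 1 (0.0770). Serpina3n had a peak in 6 DEX libraries (54.6 to 113) and in 6 h PBS replicate 2 (90.1), and did not pass (adjusted p = 0.0764, exact test). It passed without that PBS library (adjusted p = 0.0209) and without 6 h DEX replicate 3 (0.0190), 24 h DEX replicate 1 (0.0355) or 24 h DEX replicate 2 (0.0359). Txnip had one in 5 DEX libraries (46.3 to 98.1) and in the same PBS library (60.8), and did not pass (adjusted p = 0.207, exact test).

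The other sites of highest tags belonged to Fam117b, Fzd4, Pla2g12a, Lcn2, Ciart, Otulin, Got1 and Mt1. Fzd4 (chr7:89403398-89403696), a receptor for Wnt ligands, had 183, 297 and 451 normalized tags as its lowest, median and highest DEX values, against 24.1 to 225 in the 4 PBS libraries with a peak, so the groups overlapped. Its site also lay inside the span of Tmem135. Lcn2 (chr2:32388185-32388412), an acute phase protein that binds bacterial siderophores, had 215, 275 and 404 with DEX and a PBS peak in 6 h PBS replicate 2 alone, of 124, below every DEX value. Ciart (chr3:95882742-95882951), a repressor of the circadian clock, had 173.5, 273 and 395 with DEX, and 41.5, 278 and 141 in the 3 PBS libraries of 6 h, which overlapped. Both passed the detection test (adjusted p = 0.00438 for Lcn2 and 0.0138 for Ciart, exact test). Fam117b had 170.1, 348 and 452 with DEX and 193 in 6 h PBS replicate 2 alone, inside the DEX range (adjusted p = 0.00438, exact test). Pla2g12a, a secreted phospholipase gene, had 164, 306 and 398 with DEX, against 17.6 to 158 in 3 PBS libraries, with no overlap (adjusted p = 0.0216, exact test). Otulin, which removes linear ubiquitin chains and restrains NF-kappa-B, had 193, 222 and 345 with DEX, against 31.2 to 142 in 7 PBS libraries. Its tags did not overlap, and with a PBS peak in 7 of 9 libraries its detection did not pass (adjusted p = 0.441, exact test), but passed at 86.6 tags in every library (adjusted p = 0.0181).

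**Figure D4:**
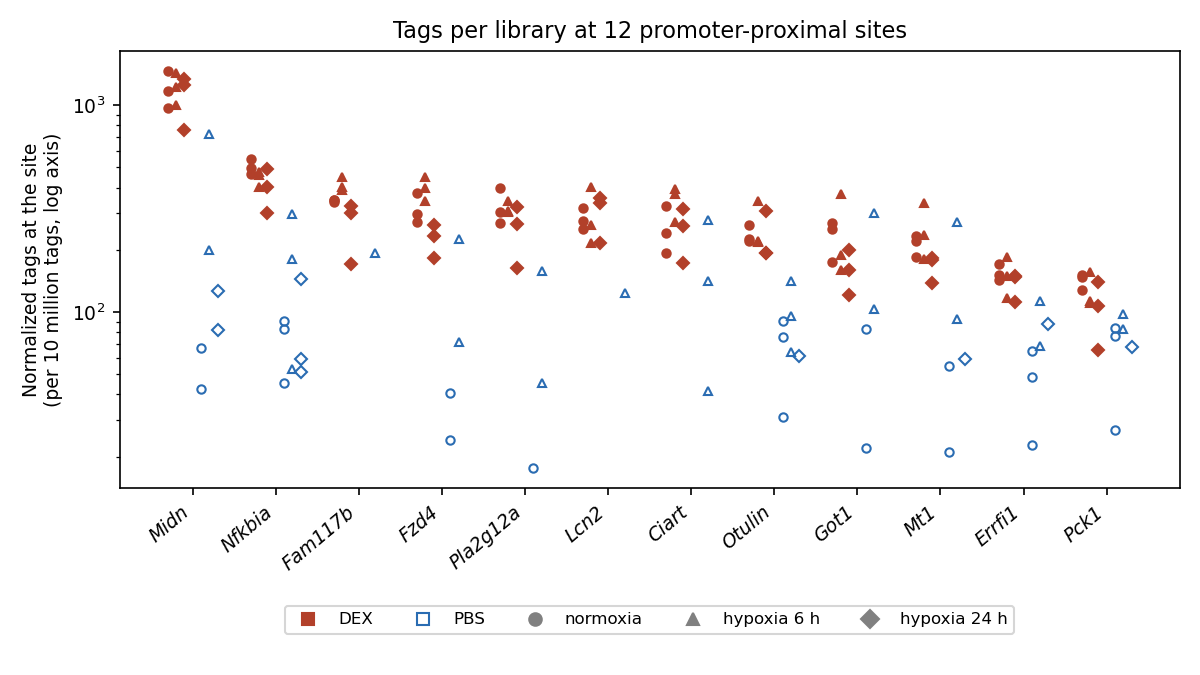
Normalized tags per 10000000 tags on a log axis (y axis) in each library with a peak, at 12 promoter-proximal sites (x axis), with DEX in filled red and PBS in open blue and the oxygen condition by marker shape. A library with no point had no peak there. Nfkbia and Midn have all DEX points above all PBS points, while at Got1, Ciart and Mt1 the highest PBS point reaches into the DEX range.

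One library supplied most of the high PBS values. Of the 49 sites with a peak in all 9 DEX libraries, 45 also had a PBS peak, and the highest PBS value was in 6 h PBS replicate 2 at 39 of them. At 21 of the 45 every DEX value was above every PBS value and at 24 they overlapped. That library held a peak at 40 of the 49, against 1 to 29 in the other 8. Its share in the overlaps was not tested. These counts were not made over the 935 sites of any distance with a peak in all 9 DEX libraries. They therefore do not set sites near gene starts apart.

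Among the 4 sites found with DEX in all 9 libraries and with PBS in 0, Trappc10 (chr10:78244170-78244380), a subunit of a complex that tethers vesicles, had 64.9, 121 and 189 normalized tags as lowest, median and highest. Ip6k2 had 70.9, 111 and 149, and its AGAACA arm lies in the sequence above. Saa3 (chr7:46719597-46719814), an acute phase serum amyloid A gene, had 69.0, 90.2 and 121, and Tbc1d24, which regulates vesicle traffic, had 54.7, 79.7 and 161. The site at Tbc1d24 also lay inside Ntn3. All 4 had an adjusted p of 0.00307 (exact test). At 86.6 tags in every library Tbc1d24 lost its call (adjusted p = 0.0697). The PBS libraries could call a peak from 11.5 to 57.7 tags upward, so PBS occupancy under those values was not detectable.

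Sites were grouped by gene lists of known liver pathways. The lists were written with earlier results of these data known, so the share of a list with a site is no test. Of 22 classical glucocorticoid-induced genes with a known strand, 6 had a promoter-proximal site (Ddit4, Errfi1, Tat, Mt1, Lcn2 and Nfkbia), against 1.05% of all protein-coding genes with one. Ddit4, an inhibitor of growth signalling through mTOR, and Lcn2 were detected more often with DEX (adjusted p = 0.00438 each, exact test). Errfi1, an inhibitor of the EGF receptor, had 112, 149.5 and 185 normalized tags with DEX, against 22.7 to 114 in 6 PBS libraries, and did not pass (adjusted p = 0.23, exact test), but passed at 86.6 tags in every library (adjusted p = 0.00849). Mt1 had 138, 185 and 338 with DEX, against 21.1 to 271.5 in 5 PBS libraries, and did not pass (adjusted p = 0.131, exact test), but passed without 24 h PBS replicate 1 (adjusted p = 0.0437) and at 86.6 tags in every library (adjusted p = 0.0066).

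Of 16 genes of gluconeogenesis and amino acid breakdown, 6 had a site (Pck1, G6pc, Tat, Got1, Gpt2 and Hal). Pck1 (chr2:173152555-173152835), which makes phosphoenolpyruvate from oxaloacetate, had 65.8, 128 and 156 normalized tags with DEX, against 26.8 to 98.0 in 6 PBS libraries, with overlap and no pass (adjusted p = 0.23, exact test), though it passed at 86.6 tags in every library (adjusted p = 0.00849). Got1, an aspartate aminotransferase, was detected more often with DEX (adjusted p = 0.0452, exact test). The call was lost without normoxia PBS replicate 3 (adjusted p = 0.0743) and without 6 h PBS replicate 1 (adjusted p = 0.0770). G6pc, which releases free glucose, had a peak in 3 DEX libraries (44.8, 44.1 and 49.0) and in no PBS library, and Tat, tyrosine aminotransferase, in 6 DEX and 3 PBS libraries. Neither passed (adjusted p = 0.23 and 0.335, exact test).

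Of 25 acute phase and inflammation genes, 8 had a site (Saa3, Orm2, Orm3, Lcn2, Fga, Fgg, Il6ra and Nfkbia). Orm2 had 71.8, 125 and 165 normalized tags with DEX, against 49.0 in 1 PBS library. Fga and Fgg, chains of fibrinogen, had a peak in 7 DEX libraries each, against 1 and 0 PBS libraries (adjusted p = 0.0216 and 0.00859, exact test), and Fga lost the call at 86.6 tags in every library (adjusted p = 0.222). Il6ra, the receptor for interleukin-6, had 76.9, 134.5 and 275 with DEX and 122 in 1 PBS library (adjusted p = 0.00438, exact test). At the best site of each, 7 of the 8 were detected more often with DEX, beside 46.7% of the 182 and 55.3% of all sites, and Nfkbia had a peak in every library. The best site was the one found in most libraries, which favours a call, so these shares are not a like comparison. The other site of Orm3, at -490 bp, did not pass (adjusted p = 0.0677, exact test).

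Other sites detected more often with DEX, picked after their values were seen, lay at Acacb, Vtn, Bhmt, Hspa5 and Sod1. Acacb, an acetyl-CoA carboxylase, had 57.3, 98.8 and 163 normalized tags with DEX, against 22.2 and 71.0 in 2 PBS libraries (adjusted p = 0.0112, exact test). Vtn, which makes the plasma protein vitronectin, had a peak in 8 DEX libraries and 1 PBS library (adjusted p = 0.0112, exact test). Its lowest, median and highest DEX values were 44.9, 53.65 and 121, and the PBS value of 71.0 lay above that median. Bhmt, which remethylates homocysteine, had one in 6 and 1 (adjusted p = 0.0403, exact test). Hspa5, a chaperone of the endoplasmic reticulum, and Sod1, a superoxide dismutase, had one in 6 DEX libraries each and in no PBS library (adjusted p = 0.0216 each, exact test). Their DEX values were 45.1 to 92.9 and 46.3 to 68.5, and the PBS libraries could call from 11.5 to 57.7 tags upward, so some values were near the limit.

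Of 17 genes of bile acid, cholesterol and xenobiotic metabolism, 3 had a site (Cyp27a1, Nr0b2 and Insig2), and Insig2, which retains the sterol sensor in the endoplasmic reticulum, was detected more often with DEX (adjusted p = 0.00438, exact test). Of 21 fatty acid and lipid droplet genes 2 had one (Acadm and Plin4), of 21 genes of insulin and growth factor signalling 2 (Sesn1 and Errfi1), of 11 metal and oxidative stress genes 2 (Mt1 and Hamp), of 22 targets of the hypoxia-inducible factors 1 (Ddit4) and of 16 clock genes 1 (Ciart). Of 11 hepatocyte markers with a known strand 1 had one (Tat). Of 15 liver transcription factors, 15 immediate early genes, 75 ribosomal protein genes, 10 Kupffer cell and leukocyte markers, 9 endothelial and 9 stellate or cholangiocyte markers, 0 had one. The share over all protein-coding genes was 1.05%, so counts of 0 or 1 in such short lists do not tell cell types apart.

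At the 6 genes with 2 sites the difference between the sites was not tested. At Ell2, an elongation factor, the site 831.5 bp inside had 84.6, 133 and 151 normalized tags over 9 DEX libraries, against 80.0 in 1 PBS library, while the site at -147 bp had a peak in 1 DEX library (52.6) and 2 PBS libraries (99.1 and 33.5). At Lcat, which esterifies plasma cholesterol, the site inside the gene was found in all 9 DEX libraries and the one upstream in 5. At Slc25a47, a mitochondrial carrier of liver, they were found in 7 and 3, at Aox1 in 7 and 5, at Orm3 in 6 and 5 and at Hjurp in 6 and 3 DEX libraries. Between neighbouring genes, the site at Sesn1 lay within 1 kb of Cep57l1, that at Slc26a8 within 1 kb of Mapk14 and that at Lpxn within 1 kb of Zfp91, so their gene cannot be told apart.

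The 8 sites with more PBS than DEX libraries (4.40%, against 1.79% of all sites) did not pass the test (lowest adjusted p = 0.181, exact test). Taco1 had 115 in normoxia DEX and 84.8 and 104 in 6 h DEX libraries, against 91.3 to 132 in 7 PBS libraries. Hjurp had 47.0 to 81.3 in 6 DEX libraries and 56.8 to 81.4 in 7 PBS libraries. Their ranges overlapped, and the authors' ratio over input was 6.22 and 5.49 there, with 16.5 and 11.4 input tags, against medians of 42.2 and 1.60 over the 182 sites. The sites at Xrn1, Ctso, Nmi, Parp12 and Tmem267 had 3 PBS libraries and no DEX library, at 24.5 to 43.0 normalized tags. Those values lay in libraries that could call 11.5 to 31.9 tags, whereas the DEX libraries could call 37.9 to 86.6, and their part in these sites was not tested.

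Hypoxia was compared with normoxia on tags with DEX, at the 49 sites with a peak in all 9 DEX libraries. After centring each library on its median, 0 of the 49 passed in limma, against 3.10% of 935 sites higher and 2.03% lower. At an unadjusted p under 0.05, 0 were higher and 3 lower (6.12%), against 9.95% and 7.38% of all sites. The median change was -0.0045 on the log2 scale near gene starts and 0.05 over all sites, with 24 of the 49 above 0. Centring used the medians of the 935 sites tested, so a median change near 0 over all sites follows largely from it. Without centring, 39 of the 49 were below 0 and 0 passed, against 0.214% of all sites higher and 0.963% lower. The median change was then -0.155 near gene starts and -0.0979 over all sites. The share of all 935 sites below 0 was not counted.

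Car5a (chr8:121944893-121945184), a mitochondrial carbonic anhydrase that feeds bicarbonate to gluconeogenesis and urea synthesis, had 125, 213 and 106 normalized tags after 6 h and 67.5, 132 and 179 after 24 h, against 196.5, 193 and 199 in normoxia. Its change was -0.46 ± 0.15 (SE, adjusted p = 0.107, limma), and after centring all 6 hypoxia values were below the 3 normoxia values, whereas 1 of the 6 was above them before it. Sbf2 (chr7:110614128-110614425), a regulator of membrane traffic, had 219, 229 and 221 after 6 h and 99.1, 140.1 and 152 after 24 h, against 262, 222 and 255.5 in normoxia, with a change of -0.39 ± 0.16 (adjusted p = 0.212, limma). At 24 h alone Sbf2 had -0.65 ± 0.18 (adjusted p = 0.0543, limma), and its 24 h values were all below its normoxia and 6 h values. Trappc10 had 94.4, 189 and 121 after 6 h and 64.9, 79.1 and 88.6 after 24 h, against 136, 137 and 160.2 in normoxia (-0.38 ± 0.16, adjusted p = 0.218, limma).

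Within hypoxia, 24 h against 6 h gave 0 of the 49 past the adjusted threshold, against 0.107% of all sites higher and 1.28% lower, and 11 lower (22.4%) and 2 higher (4.08%) at an unadjusted p under 0.05, against 9.20% and 7.27% of all sites. The same fit gave 0 of the 49 at 6 h against normoxia, against 1.71% higher and 0.856% lower over all sites, and 0 at 24 h against normoxia, against 2.14% and 2.03%. Leaving out normoxia DEX replicate 3 brought Brwd1 (0.52, adjusted p = 0.033, limma) and Ciart (0.61, adjusted p = 0.0338, limma) past the threshold as higher in hypoxia, against 0.31 and 0.37 with all libraries. Leaving out 24 h DEX replicate 3 brought Car5a past it as lower (-0.56, adjusted p = 0.0372, limma).

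**Figure D5:**
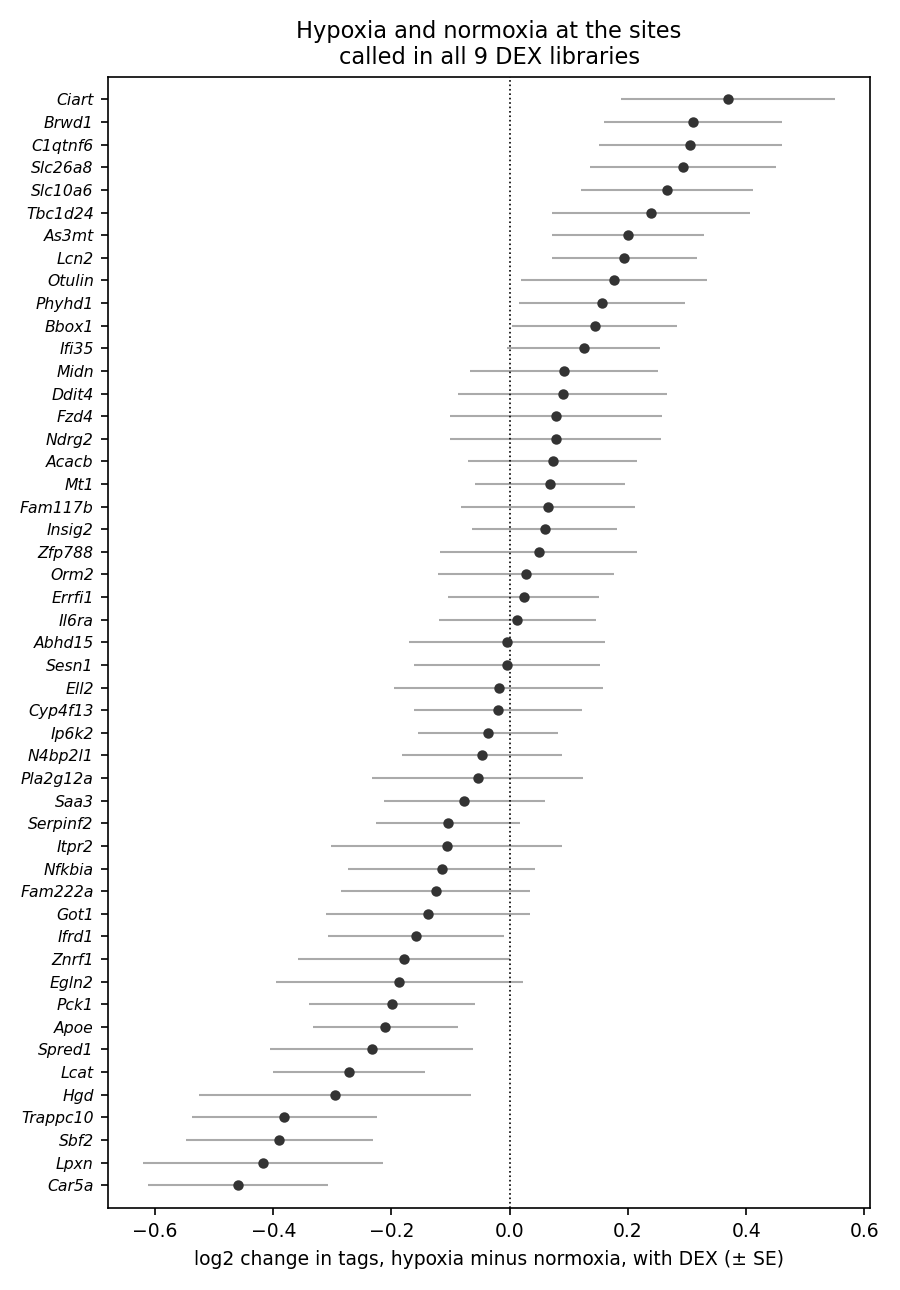
log2 change in normalized tags, hypoxia minus normoxia, with DEX (x axis, after centring each library) at the 49 promoter-proximal sites with a peak in all 9 DEX libraries (y axis, ordered by change). Points are limma estimates from 9 libraries and bars their standard errors. The changes run from -0.46 at Car5a to 0.37 at Ciart, and 24 lie above 0.

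Detection was also compared between hypoxia and normoxia. With DEX, 0 of 176 promoter-proximal sites passed (Fisher's exact test), against 0.00% of 2938 sites, and the smallest adjusted p this design gave was 0.343. At an unadjusted p under 0.05, 16 were found less often in hypoxia (9.09%) and 0 more often, against 257 (8.75%) and 3 (0.102%) of all sites. A peak in all 3 normoxia DEX libraries and none of the 6 hypoxia DEX libraries was found at 7 of the 182 sites (3.85%), against 3.98% of all, and the reverse at 0, against 0.117%. Among them were Cyp27a1, which oxidises the sterol side chain on the way to bile acids (56.1, 49.6 and 48.0 normalized tags), Slc29a1, a nucleoside transporter (54.6, 57.3 and 53.4), and Apoc4, an apolipoprotein (47.0, 60.1 and 53.4). Hsdl2, Cnot6 and Tnfrsf14 showed the same pattern, at 48.8 to 86.5. The 6 hypoxia libraries could call 39.5 to 86.6 tags, and the 3 normoxia ones 37.9 to 47.7, so tags of this size were near the limit of several hypoxia libraries. The part of depth in this pattern was not tested.

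With PBS, 0 of 48 sites passed for detection, against 0.00% of 632, and at an unadjusted p under 0.05 also 0. On tags, Nfkbia alone could be tested with PBS, and its change was -0.08 ± 0.23 (SE, adjusted p = 0.819, limma), against 0.00% of 64 sites called either way.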

How the data were processed

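The peak lists of 18 GR libraries were used, 3 per group by title. The 3 inputs were used only as background values inside these lists. Per the submitters' processing notes, the tools were Trimmomatic, BWA 0.7.17, SAMtools 1.10 and HOMER, on mm10. Per the file headers, each library was called by itself against the input of its oxygen condition, at 4-fold over input and over the surrounding 10000 bp, with a Poisson p of 1e-04. The deposited signal, a normalized tag count, was scaled by the authors to 10000000 tags. The deposited score is unscaled and at least 50 in each list. The deposited ratio is the authors' fold over input per peak, used only as a description.

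Peaks overlapping by 1 bp were merged. A site's tags are those of its highest peak. Gene spans were from a GRCm38.p6 table, and strand from RefSeq promoter windows, which gave it for 17492 of 21900 protein-coding genes. Genes without strand were left out, and 64 sites near them were not counted.

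Detection was compared with exact tests and tags with limma 3.58.1 (R 4.3.3), adjusted by Benjamini-Hochberg over all sites tested, at 0.05. Both were tested on simulated data. The DEX against PBS fit was not centred and the hypoxia fit was centred on library medians. Members and gene lists were chosen with earlier results of these data known. Named sites were those in all 18 lists, those in 9 DEX and 0 PBS libraries, the 10 with most tags, those with more PBS than DEX libraries, those of normoxia DEX only, those at paired genes or with 2 sites at a gene, and the best site of each listed gene. Depth was 5772670 to 43645787 tags.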

Additional observations from a re-analysis of the deposited data

How the results depend on the processing

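Requiring 6 of 18 lists left 99 promoter-proximal sites, and leaving out each library in turn gave 151 to 182. The 85 sites found more often with DEX became 44 with a replicate block (24.2% of 182, against 35.9% of all sites), 44 of 66 at a common threshold of 86.6 normalized tags (66.7%, against 62.5%), and 0 of 2 at equal list lengths of 78 peaks, where few sites remain by construction. Leaving out each library gave 76 to 101. Replicate numbers were not taken to pair the samples. Only DEX libraries were correlated with each other, so pairing of DEX with PBS libraries was not tested. Correlations of same-numbered DEX libraries ran from 0.006 to 0.506, 7 of 9 such pairs passed 0.1 (4 of 18 pairs of other numbers did), where every pair was required, and 6 of the 9 DEX libraries correlated best with a library of their own number. Among named sites, the block put Serpinf2, Slc10a6, Sod1, Hspa5, Fga, Orm3, Ciart, Pla2g12a and Slc26a8 at an adjusted p of 0.0657 and Gnmt, Got1, Fzd4, Bhmt, the inner site of Aox1 and the upstream site of Lcat at 0.106. Tags higher with DEX were called at 2 sites when sites in at least 2 of 3 libraries of every group were tested, against 1. For hypoxia with DEX, leaving out each library gave 0 to 2 sites higher and 0 to 1 lower. Among single sites, detection calls for DEX were lost in 34 and gained in 15 of the site and setting pairs run. No single site changed sign, but the share of promoter-proximal sites called was below that of all sites with every peak used (46.7% against 55.3%) and above it at the common threshold. Chosen after seeing the data, counting any listed gene start gave 215 sites, and adding either end of genes without a strand gave 246. The count of promoter-proximal sites in a direction without centring is given with the hypoxia comparison. The lowest value that could be called differed with depth, since 50 tags were needed in every library. The part of depth in the detections was not tested.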
